A study of Mus musculus with 2 samples.

Results

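The genes described here encode the proteins of the mitochondrial ribosome (mitoribosome), measured in gastrocnemius, a calf muscle of mostly fast fibres. They were chosen by name alone: genes with at least 1 transcript labelled protein_coding whose symbol is Mrpl or Mrps followed by a digit, with pseudogenes left out. This gave 78 genes among 55536 genes in the tables and among 21901 genes that have such a transcript. Total RNA was sequenced from muscle of female B6CASTF1/J mice, a hybrid of a laboratory strain with a castaneus strain, at 36 days of age. All samples form 1 group of 2 libraries, replicate 1 and replicate 2, made from 300 ng of RNA plus a mix of synthetic control RNAs (spike-ins), with neither a treatment nor a second genotype. The values below are therefore levels within the muscle and differences between the 2 libraries, with no test of a condition. The labels number the libraries as biological replicates 1 and 2, each as technical replicate 1. Whether 1 or more animals gave the samples is not stated in the labels. Biological and technical spread between the libraries cannot be told apart.

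The mitoribosome translates the few messenger RNAs of the mitochondrial genome, which encode core subunits of the respiratory chain and of ATP synthase. Its rRNAs are made in the mitochondrion, whereas all of its proteins are encoded in the nucleus, made in the cytosol and imported. Some of these proteins descend from bacterial ribosomal proteins, and others were added during the evolution of mitochondria. Skeletal muscle depends on this machinery for its oxidative capacity, which differs between slow and fast fibres.

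The gene tables held 37735687 expected counts in replicate 1 and 40656175 in replicate 2, of which the 78 genes took 48123 and 58337 (0.128% and 0.143%). The libraries stood apart in muscle and other markers. The 5 genes listed as fast-fibre markers (Acta1, Ckm, Myh4, Tnnt3 and Pvalb) were abundant in both libraries. Their summed level was 91954 and 67471 TPM (a share of all transcripts, corrected for transcript length). Acta1 and Ckm are also expressed in slow fibres, so this sum is not particular to fast fibres. Of the others, Myh4 had 15369 and 10376 TPM, Tnnt3 17113 and 12783 TPM, and Pvalb 9941 and 6435 TPM. The 6 slow-fibre markers (Myh7, Myl2, Myl3, Tnnt1, Tnni1 and Tnnc1) went from a summed 2.93 TPM in replicate 1, where the highest had 1.19 TPM, to 2397 TPM in replicate 2. Summed markers of fat cells were 215 and 23.9 TPM, of nerve 116 and 35.5 TPM, of red blood cells 2445 and 425 TPM, and of lymphocytes 0.2 and 4.89 TPM, with Rag1 listed at 0 in replicate 1. Of all counts, 9.39% and 17.5% fell on rows of the mitochondrial genome.

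Nearly all mitoribosomal protein genes were expressed at a moderate level, most of them within 2-fold of a common median. A level of at least 1 TPM in both libraries was reached by 77 of 78 genes, beside 45.2% of all genes annotated as protein-coding. At 5 TPM the number was still 77, beside 26.6% of protein-coding genes, and at 10 TPM it was 64. The median over the 78 genes was 19.4 and 20.9 TPM in replicates 1 and 2 (20.2 ± 1.05 TPM, SD, n = 2). The median gene stood above 77.9% of the protein-coding genes detected in both libraries. Within 2-fold of the median of their set lay 73.1% and 74.4% of the 78 genes, beside 41.6% and 41.9% of those detected genes. The exception was Mrpl23, with 0.89 TPM in replicate 1 and 2.41 TPM in replicate 2, which is described separately.

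Mrps21, a small-subunit protein of bacterial descent, had the highest mean level, with 141 TPM in replicate 1 and 119 TPM in replicate 2 (130 ± 15.1 TPM, SD, n = 2). Mrpl42, a large-subunit protein found only in mitochondria, followed with 114 and 126 TPM (120 ± 8.85 TPM). The order of these genes switched between the libraries, so they did not differ beyond their spread. Mrpl30 had 105 and 106 TPM, and Mrpl33 had 93.7 and 102 TPM. Mrpl51, another mitochondria-specific protein, had 78.9 and 83.2 TPM and lay below these 4 genes in both libraries. Lower still were 51.6 and 62.5 TPM for Mrpl15, 44.2 and 54.9 TPM for Mrps23 and 40.1 and 56.3 TPM for Mrpl12, a protein of the flexible stalk that recruits translation factors; these 3 overlapped between libraries. The 5 highest genes together held 26.9% of the summed TPM of the set in replicate 1 and 24.2% in replicate 2.

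At the low end, apart from Mrpl23, lay Mrpl39 with 5.88 and 6.15 TPM and Mrps30 with 6.98 and 6.85 TPM. Mrps30 is a large-subunit protein despite its name. Mrpl19 had 6.37 and 7.71 TPM, and Mrps6 had 6.9 and 7.64 TPM. The values of Mrps30, Mrpl19 and Mrps6 overlapped. Mrps2 followed with 7.55 and 9.71 TPM, then Mrpl1, the protein of the mobile stalk beside the tRNA exit site, with 8.41 and 9.87 TPM, and Mrpl49 with 8.84 and 10.1 TPM. Of the 78 genes, 10 had a mean level over 2 times the median of the set and 11 lay below it by the same factor. The same counts were not made for all genes.

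**Figure D1:**
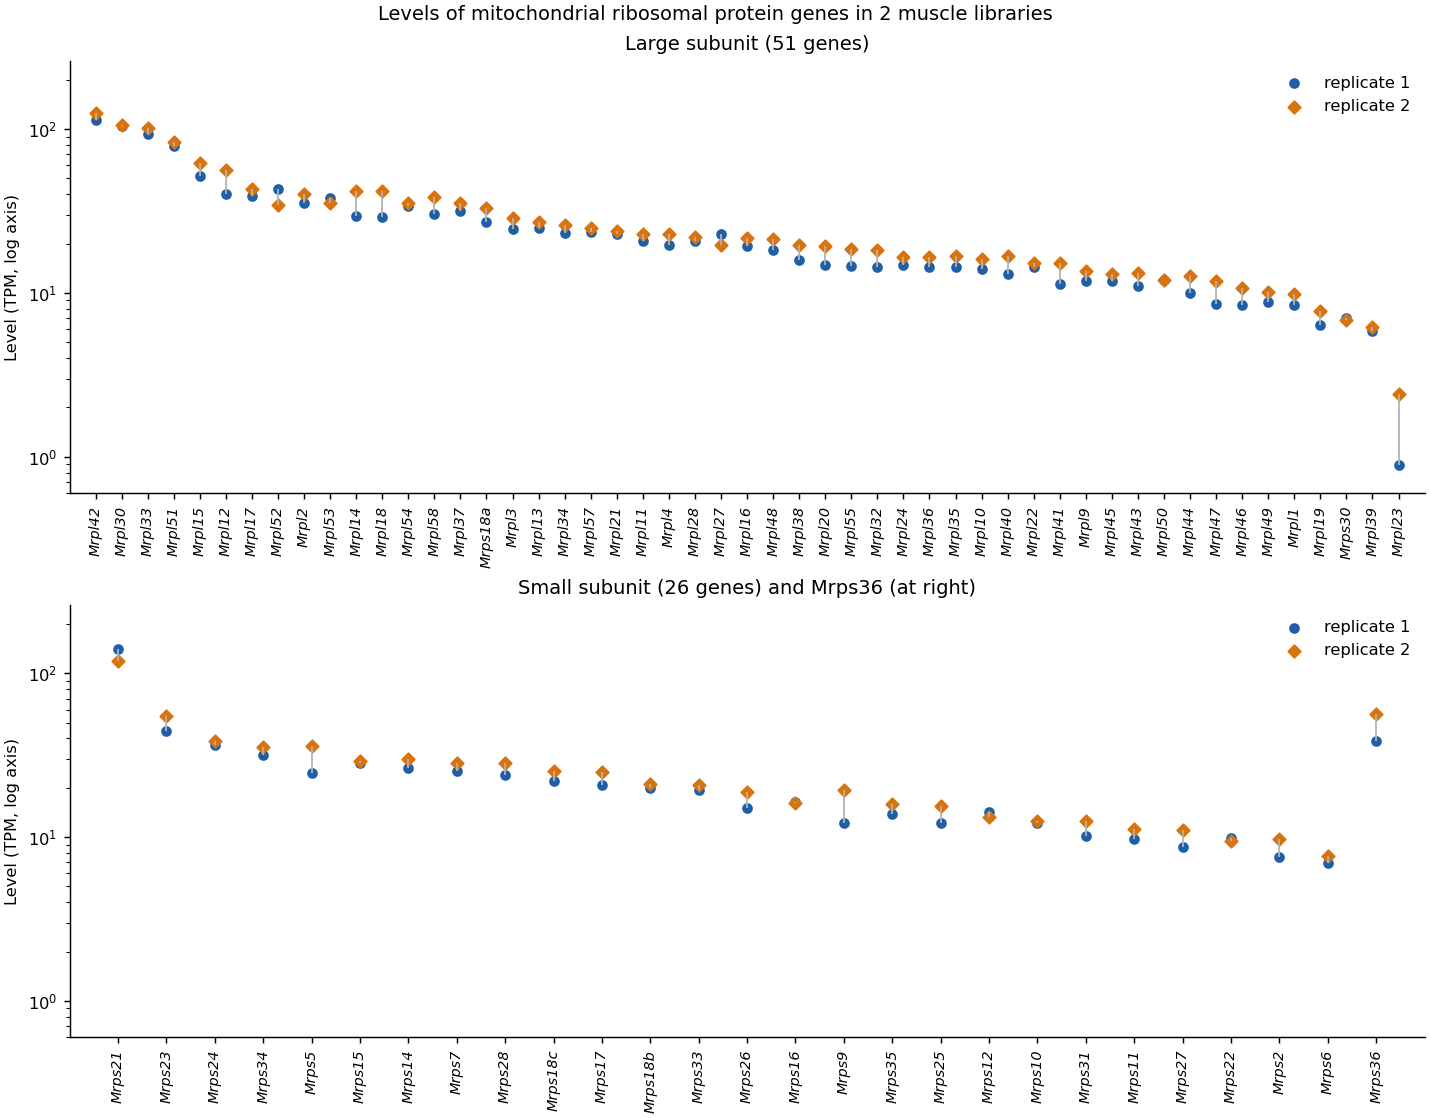
Level in TPM (log axis) of each gene in replicate 1 (circles) and replicate 2 (diamonds), ordered by mean level, with large-subunit genes above and small-subunit genes below as placed in the solved mitoribosome; the line joins the libraries. Mrps21 and Mrpl42 stood highest at a mean of 130 and 120 TPM, and Mrpl23 lay apart at 0.89 and 2.41 TPM.

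The ranking was nearly the same in both libraries. Spearman's rho of TPM between them was 0.982 over the 78 genes, and the largest change of rank was 13 places. This is a correlation across genes of a single tissue, and genes are not independent replicates. Shorter genes had higher levels: Spearman's rho between TPM and the length used for it was -0.64 in replicate 1 and -0.59 in replicate 2. The same value was -0.33 and -0.37 for the 76 cytosolic ribosomal protein genes, and -0.17 and -0.19 for the 9955 detected protein-coding genes. The median length was 740 bases for the 8 highest genes and 2117 bases for the 8 lowest in replicate 1. Length enters TPM as its divisor, so the 2 measures are not independent.

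The promoters of several of these genes hold short sequences known as binding sites of NRF-1 and GABP, transcription factors of nuclear genes for mitochondrial proteins, and of YY1, which binds many ribosomal and mitochondrial promoters. A RefSeq window of 300 bases, from 250 before the start to 50 after it (GRCm38.p6), was found for 69 of the 78 genes. The 100 bases before this RefSeq start are printed for 3 of the 5 highest genes, for Mrpl3 and for Mrpl36, to show a match of each kind. Except for Mrpl30, this start lies inside the annotated gene used for the levels. The printed bases of Mrpl51 (gene at chr6:125191801-125196269) and Mrpl36 (gene at chr13:73328513-73332178) lie wholly within the annotated gene. These genes were chosen after their matches were seen. Each is written 5′ to 3′ on the gene's strand, and capitals mark the match. Mrps21 is on the minus strand at chr3:95871515-95871614, and its capitals, like those of Mrpl30 at chr1:37890377-37890476 on the plus strand, mark an NRF-1 match. Those of Mrpl51 at chr6:125192100-125192199 and Mrpl3 at chr9:105053168-105053267, both on the plus strand, mark a GABP match, and those of Mrpl36 at chr13:73330909-73331008 on the plus strand mark a YY1 match.
Mrps21: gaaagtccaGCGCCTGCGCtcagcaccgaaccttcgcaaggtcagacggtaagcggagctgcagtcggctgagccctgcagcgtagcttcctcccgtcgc
Mrpl30: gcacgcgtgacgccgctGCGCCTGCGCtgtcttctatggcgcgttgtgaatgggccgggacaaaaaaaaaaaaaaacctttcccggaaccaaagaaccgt
Mrpl51: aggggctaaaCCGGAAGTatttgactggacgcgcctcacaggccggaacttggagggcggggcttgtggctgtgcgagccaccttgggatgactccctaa
Mrpl3: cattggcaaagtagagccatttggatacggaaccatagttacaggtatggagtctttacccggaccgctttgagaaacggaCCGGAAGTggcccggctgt
Mrpl36: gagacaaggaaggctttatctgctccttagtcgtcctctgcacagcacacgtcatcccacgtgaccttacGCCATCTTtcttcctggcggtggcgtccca

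The letters searched on both strands were GCGCA, any base and GCGC in a row for NRF-1, CCGGAAGT for GABP and AAGATGGC for YY1, and none of them contains another. The NRF-1 letters were found in 13 of the 69 windows (18.8%), beside 12.8% of the windows of detected protein-coding genes and 4.6% of all 32851 windows. The GABP letters were found in 12 windows (17.4%), beside 10.1% and 3.89%. The YY1 letters were also found in 12 windows (17.4%), beside 5.96% and 2.75%. Among 62 windows of nuclear-encoded respiratory chain genes the shares were 25.8% for NRF-1, 6.45% for GABP and 14.5% for YY1. Among 56 windows of cytosolic ribosomal protein genes they were 8.93%, 19.6% and 8.93%. The Wilson interval for the 69 windows was 11.4% to 29.6% for NRF-1, which holds the share of detected genes. It was 10.2% to 28% for GABP and for YY1, above their 10.1% and 5.96%. No match was found in 35 of the 69 windows, and 3 of the 69 held more than 1 kind. Genes with an NRF-1 match had a median of 16.8 TPM and those without 20 TPM. The medians were 22.5 and 16.6 TPM for GABP, and 15.9 and 20.1 TPM for YY1. These differences were not tested, and a match of letters does not show that a factor binds. With longer spellings of the motifs the share was 8.7% beside 2.86% of detected protein-coding genes for NRF-1, 2.9% beside 1.46% for GABP and 7.25% beside 2.86% for YY1.

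Some of the genes start near a neighbour that is transcribed in the opposite direction. The annotated start lay within 1000 bases of the start of a divergent protein-coding gene for 18 of 78 genes (23.1%), beside 11% of detected protein-coding genes. Mrpl49 and Fau, which encodes a cytosolic ribosomal protein, start 59 bases apart; Mrpl49 had 8.84 and 10.1 TPM and Fau had 157 and 157 TPM. Mrpl30 starts 66 bases from Mitd1, which had 0.62 and 0.9 TPM against 105 and 106 TPM for Mrpl30. Mrps27 starts 81 bases from Ptcd2, a gene for an RNA-binding protein of mitochondria, and both were near 10 TPM, with 8.7 and 11.1 TPM for Mrps27 and 8.63 and 11.1 TPM for Ptcd2. Mrps12, a protein of the decoding centre, starts 172 bases from Sars2, the mitochondrial seryl-tRNA synthetase; they had 14.3 and 13.2 TPM, and 5.43 and 5.72 TPM. Over all 18 pairs, the neighbour lay within 2-fold of the mitoribosomal gene in both libraries in 5 pairs, over 2-fold lower in 12 and over 2-fold higher in 1, the pair of Mrpl49 and Fau. Divergent pairs of other genes were not counted in this way, and the median mitoribosomal gene stood above 77.9% of detected protein-coding genes. The pairs named here were picked after their values were seen.

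The 2 subunits were expressed at like levels. By their place in the solved structure, 51 genes belong to the large subunit and 26 to the small subunit. Mrps36 belongs to neither; its protein is known as part of the oxoglutarate dehydrogenase complex of the citric acid cycle. The median was 19.3 and 21.4 TPM for the large subunit and 17.9 and 20.1 TPM for the small subunit in replicates 1 and 2. Large-subunit genes ranged from 1.65 to 120 TPM and small-subunit genes from 7.27 to 130 TPM by mean level. Genes with a bacterial counterpart (47) had a median of 20.6 and 21.9 TPM, and mitochondria-specific genes (30) 14.5 and 17.7 TPM. The ranges of these classes overlapped almost wholly, from 1.65 to 130 TPM and from 6.02 to 120 TPM.

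Proteins that work together were not at equal levels. In the stalk base and stalk, Mrpl12 had 40.1 and 56.3 TPM, Mrpl11 had 20.8 and 23 TPM, and Mrpl10, which anchors Mrpl12, had 14 and 16 TPM. The order Mrpl12, Mrpl11, Mrpl10 held in each library with no overlap. Mrpl12 is present in several copies per ribosome. The 3 paralogs of Mrps18 were closer together: Mrps18a, which sits in the large subunit, had 27 and 33 TPM, Mrps18c had 22 and 25.2 TPM, and Mrps18b had 19.8 and 21.1 TPM. Mrps18a lay above the others in both libraries. Mrpl58, a release-factor relative built into the large subunit, had 30.5 and 38.6 TPM. Mrps36 had 38.8 and 56.3 TPM, above all small-subunit genes except Mrps21 and Mrps23 in replicate 1, and above all except Mrps21 in replicate 2.

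The proteins of the mitoribosome that carry other names lay in the same range. Chchd1 had 42.5 and 43.1 TPM, Aurkaip1 26.4 and 28.7 TPM, Dap3, a GTP-binding protein of the small subunit, 25.7 and 29.8 TPM, Ptcd3 21.6 and 27.4 TPM, and Gadd45gip1 6.97 and 9 TPM. All 5 were therefore within the range of the 78 genes. The rRNAs were far more abundant. mt-Rnr1, the small-subunit rRNA, had 25908 and 47432 TPM, which was 1447 and 2360 times the median small-subunit gene. mt-Rnr2, the large-subunit rRNA, had 40610 and 78888 TPM, or 2102 and 3688 times the median large-subunit gene. The spike-in label describes rRNA-reduced libraries, so how much rRNA the muscle held and how much was removed cannot be told apart.

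The set was set beside 2 other gene sets whose products form large complexes. Cytosolic ribosomal protein genes (76) had a median of 178 and 167 TPM, and nuclear-encoded respiratory chain genes (77) 190 and 246 TPM. The respiratory chain list takes in ATP synthase genes, and its 77 rows stand for 76 symbols because Atp5o has 2 annotations. Both medians were several times above the mitoribosomal median of 19.4 and 20.9 TPM. The SD of log2 TPM in replicates 1 and 2 was 0.98 and 0.96 for the 77 detected mitoribosomal genes, 1.05 and 1.02 for cytosolic ribosomal proteins, and 1.08 and 1.12 for the respiratory chain. Over the 9955 detected protein-coding genes it was 1.89 and 1.91. All levels so far come from an alignment-based quantification. In the second deposited quantification, the reads-based table, the sets were less alike, with an SD of 1.05 and 1.03 for the mitoribosomal genes, 0.75 and 0.76 for cytosolic ribosomal proteins and 0.89 and 0.88 for the respiratory chain. In the alignment-based table, 57 and 58 of the 78 mitoribosomal genes (73.1% and 74.4%) lay within 2-fold of the median of their set. The shares were 76.3% and 78.9% for cytosolic ribosomal protein genes and 72.7% and 74% for respiratory chain genes. For the 9955 detected protein-coding genes they were 41.6% and 41.9%.

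**Figure D2:**
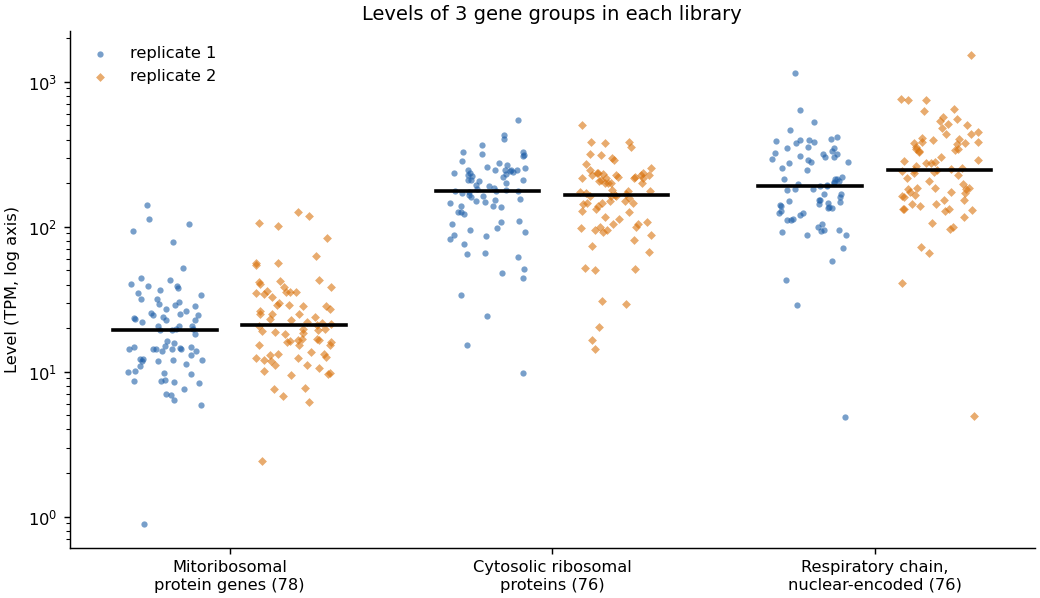
Level in TPM (log axis) of each gene in 3 sets, replicate 1 as circles and replicate 2 as diamonds, with bars at the medians of the genes plotted; 1 respiratory chain row listed at 0 in replicate 1 (a second annotation of Atp5o) is left out. The mitoribosomal medians of 19.4 and 20.9 TPM lie below those of the other sets, and the SD of log2 TPM in replicate 1 was 0.98, 1.05 and 1.08 for mitoribosomal, cytosolic ribosomal and respiratory chain genes in this alignment-based table.

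Replicate 2 held slightly more of nearly every mitoribosomal protein mRNA. Differences between libraries are log2 ratios of expected counts, replicate 2 over replicate 1, scaled by the trimmed mean of M-values (TMM); they were examined for the 77 genes that averaged 100 counts or more. The ratio was above 0 for 69 of 77 genes (89.6%), beside 48% of the 9996 genes examined in all. Its median was 0.19, beside -0.01 for all genes, and its middle range ran from 0.12 to 0.34, beside -0.16 to 0.17. The difference was small in size: 21 of 77 genes (27.3%) were over 25% higher in replicate 2, beside 13.8% of all genes, and 0 were over 25% higher in replicate 1, beside 10.8%. With genes of low counts kept, the share over 25% higher in replicate 2 was 28.2% for the set and 29.2% for all genes. Over 1.5-fold higher in replicate 2 there was 1 gene (1.3%), beside 5.64% of all genes, and over 1.5-fold higher in replicate 1 there were 0, beside 3.33%. Past 2-fold there were 0 genes in each direction, beside 2.09% of all genes towards replicate 2 and 1.21% towards replicate 1. In bulk muscle, more cells of a type and more RNA per cell cannot be told apart, and 2 libraries of 1 group show only that these libraries differed.

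Scaling set the size of this shift. With spike-in totals in place of TMM the median ratio was 0.58 and 73 of 77 genes were over 25% higher, while the median of all genes was then 0.38 and 60.1% of them passed. Each scaling adds 1 constant to the log2 ratio of every gene, so it moves the set and all genes alike.

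Mrps9, a small-subunit protein of bacterial descent, differed most. It had 12.2 and 19.4 TPM in replicates 1 and 2, and its scaled counts were 1.59-fold higher in replicate 2 (95% counting interval 1.42 to 1.77). Mrps36 had 38.8 and 56.3 TPM and was 1.48-fold higher (1.34 to 1.63). Mrpl14 had 29.4 and 42 TPM and was 1.44-fold higher (1.28 to 1.63). Each of these intervals lay above 1, so their differences exceeded counting error. Mrpl18 had 29 and 41.8 TPM and was 1.43-fold higher (1.32 to 1.56), Mrpl12 was 1.41-fold higher (1.32 to 1.51), and Mrps5, a protein near the decoding site, was 1.41-fold higher (1.27 to 1.57), with 24.6 and 35.8 TPM. These intervals cover counting error alone; without molecular identifiers, several reads may stem from 1 molecule.

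Few genes went the other way. Mrpl52, a mitochondria-specific protein, had 43 and 34.3 TPM in replicates 1 and 2 and was 1.24-fold higher in replicate 1 (1.07 to 1.43). Mrps21 had 141 and 119 TPM and was 1.14-fold higher in replicate 1 (1.06 to 1.23). These were the only genes whose counting interval placed them higher in replicate 1, against 50 placed higher in replicate 2. Intervals were computed for the mitoribosomal genes only, so no share of all genes stands beside these counts. Mrpl27, close to the peptidyl transferase centre, had 22.9 and 19.6 TPM and a ratio of 1.13 towards replicate 1 (0.984 to 1.29). The intervals of Mrps12 (log2 ratio -0.11), Mrpl53 (-0.07) and Mrps22 (-0.05) also contained equal levels. Under spike-in scaling the log2 ratios of Mrpl52, Mrps21 and Mrpl27 were 0.08, 0.2 and 0.22, so they turned towards replicate 2, as did those of Mrps12, Mrpl53 and Mrps22.

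The shift ran through both subunits. The median ratio was 0.19 for large-subunit and 0.2 for small-subunit genes, 0.18 for genes with a bacterial counterpart and 0.24 for mitochondria-specific genes. An estimate by edgeR with no groups covers the spread between the libraries, biological and technical together. It gave a median coefficient of variation of 0.174 for the 78 genes, between 0.161 and 0.243, beside 0.198 over 14263 genes. These estimates are drawn towards a value shared by all genes. The median size of the log2 ratio, whatever its direction, was 0.2 for the 77 genes and 0.17 for all genes examined, and 72.7% of the genes differed by 25% or less, beside 75.5% of all genes.

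Other parts of the mitochondrial translation pathway were examined in the same way, beside the 48% of all genes that were higher in replicate 2 by any size and the 13.8% that were over 25% higher. How these lists differ from the mitoribosomal genes was not tested. Of 14 translation factors, 9 were higher in replicate 2 by any size and 2 by over 25% (14.3%), with a median ratio of 0.2. The elongation factors Tufm (48.5 and 47.7 TPM, log2 ratio 0.22) and Gfm1 (34.7 and 43 TPM, 0.24) were the most abundant, and Mtfmt (1.63 and 1.85 TPM) and Mtrf1l (2.03 and 2.75 TPM) the least. Of 19 genes of aminoacyl-tRNA synthesis examined, 12 were higher and 4 were over 25% higher (21.1%), with a median of 0.17. Lars2 had the highest level in both libraries (16.4 and 23.1 TPM, ratio 0.5), and Pars2 the lowest (0.49 and 0.68 TPM). The level of Lars2 depended on the quantification, with 91.5 and 113 TPM in the reads-based table. Of 25 genes of assembly and rRNA modification, 18 were higher and 6 were over 25% higher (24%), with a median of 0.09. Grsf1, an RNA-binding protein of mitochondrial RNA granules, led them with 41 and 50.5 TPM, and Trmt61b was lowest with 0.29 and 0.51 TPM. Of 10 genes of mitochondrial DNA transcription and RNA stability, 8 were higher and 3 were over 25% higher (30%), with a median of 0.09. In this list Slirp, the partner of Lrpprc, had the highest level (52.3 and 57.2 TPM, ratio 0.1) and Mterf1a the lowest (0.87 and 0.57 TPM). The transcription factor Tfam had 21.8 and 22.1 TPM, and the mRNA stabiliser Lrpprc had 18.2 and 26.9 TPM. Among the genes of these 4 lists that averaged 100 counts or more, 0 were over 25% higher in replicate 1.

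The RNAs of the mitochondrial genome, which are the templates and the rRNAs of the mitoribosome, had larger ratios than the mitoribosomal genes. In the alignment-based table all 13 mitochondrial mRNAs were over 25% higher in replicate 2, with ratios from 0.59 to 1.24 and a median of 0.9. mt-Co1 had 7992 and 15453 TPM, and mt-Cytb had 4960 and 8998 TPM. In the reads-based table mt-Atp8 was listed at 0 in both libraries. There mt-Nd3 (3175 and 3281 TPM) and mt-Nd4l (54.2 and 57.7 TPM) were nearly equal, and the other mitochondrial mRNAs had more TPM in replicate 2. mt-Rnr1 and mt-Rnr2 had ratios of 0.88 and 0.97. The nuclear-encoded respiratory chain genes, whose proteins join those made in the mitochondrion, lay between: 75 of 75 examined had a ratio above 0, 49 were over 25% higher (65.3%), and the median was 0.41. Cytosolic ribosomal protein genes had a median of -0.06, with 20 of 76 higher in replicate 2. The slow-fibre markers differed in the same direction, with ratios from 8.1 to 12.23. The 5 genes listed as fast-fibre markers differed in the other, from -0.62 to -0.29. Of these, Myh4, Tnnt3 and Pvalb had -0.56, -0.41 and -0.62. The part of the fibre markers in the shift of the mitoribosomal genes was not tested.

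**Figure D3:**
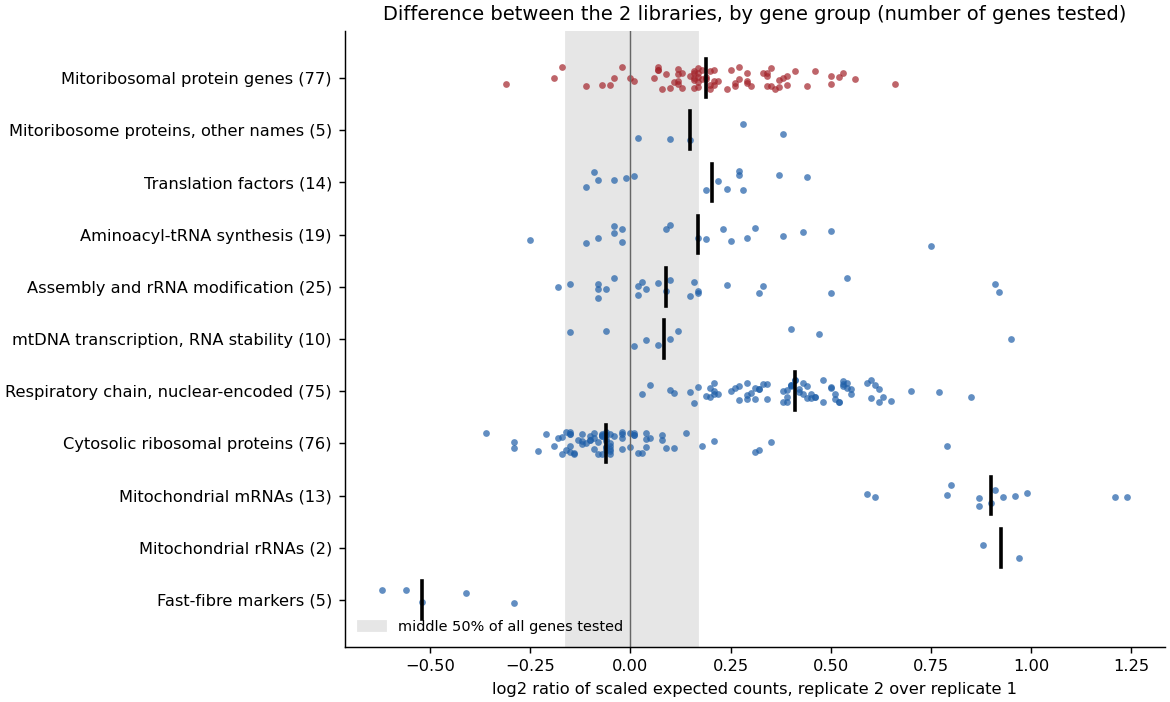
Log2 ratio of scaled expected counts, replicate 2 over replicate 1, for each gene with a mean count of at least 100 (points) and the median of each group (black bars); the grey band is the middle range of all genes examined, -0.16 to 0.17. Mitoribosomal protein genes (77) centre on 0.19, between cytosolic ribosomal proteins at -0.06 and the nuclear-encoded respiratory chain at 0.41.

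Mrpl23, a protein beside the exit tunnel of the large subunit, was nearly absent from the alignment-based table and among the most abundant genes of the set in the reads-based table. The alignment-based table gave it 38.1 and 54.4 counts (0.89 and 2.41 TPM). The reads-based table gave it 943 and 919 counts (105 and 87.5 TPM). The alignment-based table instead listed Mrpl23-ps1, a processed pseudogene, with 847 and 809 counts, or 95.7% and 93.7% of the counts of the pair, and the reads-based table listed that copy at 0. The sum of the pair was 885 and 863 counts in the alignment-based table, close to the reads-based value of the gene, and would place Mrpl23 at rank 6 in replicate 1 and rank 10 in replicate 2. The pseudogene was picked after its values were seen.

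Mrpl23 lies on the plus strand at chr7:142532686-142540747 and Mrpl23-ps1 on the minus strand at chr2:74591330-74591909 (mm10, GENCODE M21). A processed pseudogene is a copy of a spliced mRNA without introns, and here transcript Mrpl23-201 matched it over 540 bases with 0 mismatches. All 4 exon junctions of the transcript are found unbroken in the pseudogene. The 60 coding bases around the junction of exons 2 and 3, which both transcripts hold, show this, with the 4 bases that flank the junction in capitals.
Mrpl23-201: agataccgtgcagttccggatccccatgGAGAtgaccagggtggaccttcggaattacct
A read from this stretch matches gene and copy equally well. The posterior SD of the count, the deposited measure of how surely reads were assigned, was 30.6 for Mrpl23 in replicate 1, which is 80.4% of its count, and the next highest such share in the set was 2.49%.

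Other processed copies took few reads. A pseudogene copy aligned over at least 200 bases at 85% identity or more was found for 31 of the 78 genes, and 39 of these 59 copies had no count in either library. The copies summed to over 5% of the counts of gene and copies together, in both libraries, for 4 genes. These were Mrpl23; Mrps10, with 14.5% and 12% in its copies; Mrpl48, with 10.3% and 8.21%; and Mrps33, with 9.12% and 7.66%. Their levels as deposited, without the copies, were 12.2 and 12.5 TPM for Mrps10, 18.2 and 21.4 TPM for Mrpl48, and 19.5 and 20.7 TPM for Mrps33. In addition, 33 genes share exon bases with another gene. Copies and overlaps were searched for the 78 genes only, so no share of all genes stands beside these counts. Mrpl46 and Mrps11, both of this set, overlap by 173 exon bases on opposite strands, and 695 of the 790 exon bases of Mrpl53 lie in Gm42688 on the same strand. Whether counting used strand is not given in the sources used here, so levels of overlapping genes are uncertain to that extent.

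The deposited tables otherwise ranked the set alike. Spearman's rho of TPM between the tables was 0.878 in each library, across 78 genes. TPM was higher in the reads-based table for most genes: the median ratio was 1.56 for the set and 1.48 for detected protein-coding genes. The counts hardly differed, with a median ratio of 0.977, and 67 of 78 genes had counts within 1.2-fold of each other. Of all TPM in the alignment-based table, 34% and 27.7% lay in 7SL RNA, against 0.000446% and 0.000164% in the reads-based table, which changes the share left for every other gene.

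A mean TPM over 2-fold higher in the reads-based table was found for 13 of 78 genes (16.7%), beside 9.49% of detected protein-coding genes. Mrpl23 had the largest ratio, 58.4. Mrpl27 followed with 3.37, at 22.9 and 19.6 TPM against 80.3 and 63.1 TPM, although its counts differed by a ratio of 1.03. Mrpl3 (2.47), Mrpl22 (2.44), Mrpl35 (2.37), Mrps36 (2.26), Mrps33 (2.26), Mrps10 (2.25), Mrps24 (2.2), Mrpl52 (2.15), Mrps27 (2.14), Mrpl14 (2.1) and Mrpl36 (2.1) made up the rest. Mrps21, the highest gene, had 1388 and 1276 counts in the alignment-based table and 740 and 699 in the reads-based table. Its 192 TPM there was the highest of the set in replicate 1, while its 156 TPM in replicate 2 lay below Mrpl42 (176 TPM), Mrpl33 (175 TPM) and Mrpl30 (167 TPM). In the reads-based table Mrps18a (43.6 and 49.3 TPM) lay below Mrps18c (44.4 and 46.3 TPM) in replicate 1 and above it in replicate 2.

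**Figure D4:**
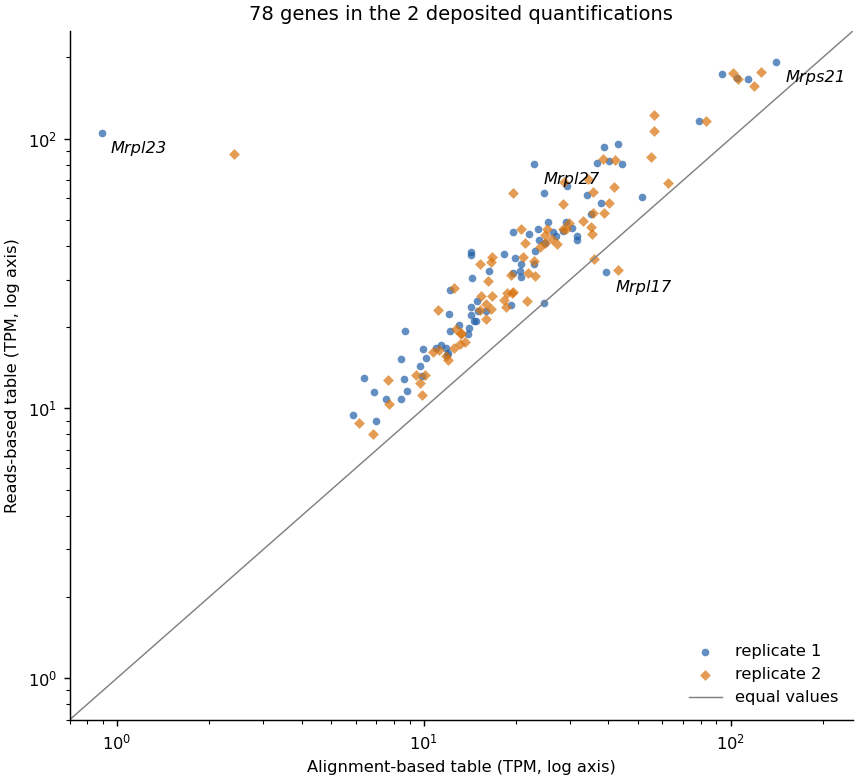
TPM of each of the 78 genes in the alignment-based table (horizontal, log axis) and the reads-based table (vertical, log axis), replicate 1 as circles and replicate 2 as diamonds, with a line at equal values. Most genes lie above the line at a median ratio of 1.56, and Mrpl23 stands far from the others at 0.89 and 2.41 TPM against 105 and 87.5 TPM.

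Most mitoribosomal genes had nearly all of their level on coding transcripts, and a group of them had most of it on transcripts that are not annotated as coding. The median coding share of TPM was 95.6% for the 78 genes, beside 92.1% for detected protein-coding genes, and 93.3% beside 89.7% in the reads-based table. The 78 genes have 343 annotated transcripts, of which 170 are labelled protein_coding. Coding transcripts held 76.7% and 76.1% of the TPM of the set in replicates 1 and 2, retained-intron transcripts 7.94% and 8.2%, processed transcripts 9.36% and 9.48%, and transcripts labelled as targets of nonsense-mediated decay, the pathway that removes mRNAs with early stop codons, 6.04% and 6.21%. By expected counts, the coding share was 81.9% in both libraries. For 19 genes (24.4%) the coding share of TPM was under 50%, beside 7.64% of detected protein-coding genes. In the reads-based table there were 18 such genes (23.1%), beside 10.5%, and 14 genes were under 50% in both tables. By counts in place of TPM, fewer genes were under 50%, namely 11 (14.1%) beside 3.82% of detected protein-coding genes, and 9 (11.5%) beside 4.75% in the reads-based table.

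In 17 of the 19 genes the leading non-coding transcript was shorter than the leading coding transcript, with a median of 700 against 2877 bases. Mrps16, a small-subunit protein of bacterial descent, had 337 and 354 counts on the processed transcript Mrps16-202 (801 bases) and 42.1 and 44.7 counts on the coding Mrps16-201 (2572 bases). Mrpl51, the fifth highest gene, had 52.2 and 55.4 TPM on the processed transcript Mrpl51-202 (855 bases) and 2.43 and 2.98 TPM on the coding Mrpl51-201 (3427 bases). Mrps26 had 14.5 and 18 TPM on a retained-intron transcript against 0.49 and 0.66 TPM on its leading coding transcript. In these 3 genes most of the level thus sat on a short non-coding model in both libraries. Mrpl57, Mrpl32, Mrpl15, Mrps25, Mrps24 and Mrpl3 had coding shares between 3.8% and 12.2% of TPM in the alignment-based table, and from 2.31% to 21.7% in the reads-based table. The genes Mrpl13, Mrpl14, Mrpl19, Mrpl20, Mrpl35, Mrpl47, Mrps5, Mrps11 and Mrps35 lay between 31% and 49.5% of TPM in the alignment-based table. By counts in that table, only Mrps11 among them was under 50%, at 37.9%. The others ran from 54% for Mrpl13 to 87.3% for Mrpl19, so most of their counts lay on coding transcripts. Mrps25 likewise had 54.4% by counts.

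For some genes the tables disagreed outright. Mrps14 had a coding share of 4.2% in the alignment-based table and 93.5% in the reads-based table, and its gene counts were alike (532 and 641 against 554 and 661). The share of Mrps11 was 31% against 82.1%, and that of Mrpl20 48% against 99.6%. The reverse held for Mrpl27, with 95.9% against 38.2%, for Mrpl17, with 79.1% against 13.3%, and for Mrps36, with 95.7% against 45.1%. In these 6 genes the split between transcript types depended on the quantification. It also varied between the libraries for Mrps11 in the alignment-based table (21.9% and 40%) and for Mrps36 in the reads-based table (40.1% and 50.1%).

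**Figure D5:**
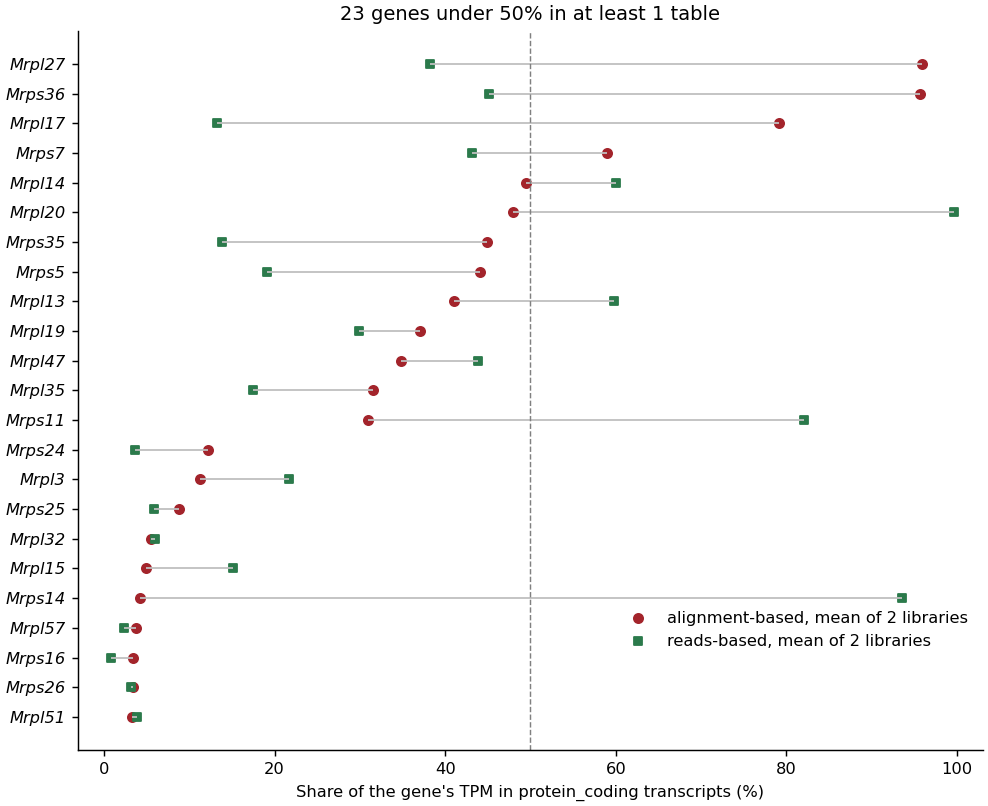
Share of each gene's TPM that lies in transcripts labelled protein_coding, as the mean of 2 libraries, in the alignment-based table (circles) and the reads-based table (squares), for the 23 genes under 50% (dashed line) in at least 1 table. Mrps14, Mrpl20 and Mrps11 are far higher in the reads-based table, and Mrpl17, Mrpl27 and Mrps36 far lower.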

How the data were processed

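The authors deposited a gene table, an alignment-based transcript table and a reads-based transcript table for each library. Expected counts and estimated counts were used as deposited, without normalisation. TPM values were used as deposited. The authors' posterior SD of the count, as deposited per the file headers, served as a score for the certainty of read assignment. Per the deposited descriptions, reads were referred to mm10 and GENCODE M21; which program quantified them is not given in the sources used here. The gene and reads-based tables were read by symbol, and reads-based transcripts were summed per gene.

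The 78 genes, the gene lists, subunit assignments and motifs were chosen with earlier results of these data known. Named genes were the 8 highest and 8 lowest by mean TPM, the 6 largest ratios each way (mean count 100 or more), genes over 2-fold apart between tables or under 50% coding, the Mrps18 paralogs, stalk genes, Mrps30, Mrps36, Mrpl58, Mrps12 and Mrpl23, other mitoribosome genes, and up to 4 of the highest and lowest genes of each pathway list. Mrpl17, Mrpl36, Mrps27, Mrpl46, Mrpl53 as an overlapping gene and Mrps10, Mrpl48 and Mrps33 for their copies were named after their values were seen.

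Ratios used expected counts scaled by TMM (edgeR 4.0.16, R 4.3.3) with a prior count of 0.5; counts were rounded for edgeR's dispersion and DESeq2 1.42.0. Intervals are exact (Clopper-Pearson) for ratios and Wilson for shares, at 95%. Copies were found with blastn 2.17.0. Python 3.11.15 ran pandas 2.3.3, numpy 2.4.6, matplotlib 3.10.9 and scipy 1.17.1. The ratio and motif steps were tested on simulated data. Labels give 1 group, so no condition was tested.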

Additional observations from a re-analysis of the deposited data

How the results depend on the processing

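A ratio between 2 libraries has no value with either left out. No paired analysis was possible because the labels give 1 group only. The median level of the set, 20.3 TPM over gene means, was 33.1 TPM in the reads-based table and 47.5 TPM when rescaled over nuclear protein-coding genes; without 1 library it was 19.4 to 20.9 TPM. The median ratio of 0.19 was 0.21 with DESeq2 size factors, 0.29 with total nuclear counts, 0.22 in the reads-based table and 0.58 with spike-in totals, and 73 genes rather than 21 were over 25% higher with spike-in totals. With total nuclear counts 31 of 77 genes (40.3%) were over 25% higher, beside 19.4% of all genes. Without a low-count filter, 22 of 78 genes (28.2%) were over 25% higher, beside 29.2% of all genes. The log2 ratio of the large-subunit to the small-subunit median was 0.1 by structure, 0.01 by gene name and 0.11 in the reads-based table, with 0.09 to 0.11 without 1 library. The spread of log2 TPM was 0.97, 1.04 in the reads-based table, and 0.96 to 0.98 without 1 library. Genes under 50% coding numbered 19, with 18 to 20 without 1 library and 11 by expected counts, an alternative chosen after seeing the data. Longer motif spellings left 6 genes (8.7%) for NRF-1, 2 (2.9%) for GABP and 5 (7.25%) for YY1, beside 2.86%, 1.46% and 2.86% of detected genes. A YY1 match before the start was found for 4 genes (5.8%), beside 2.57%. With Mrpl23 and its pseudogene summed, also chosen after seeing the data, the median level was 20.5 TPM and the median ratio 0.19. The cause of these changes was not tested.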
